A study of Pimephales promelas and Coturnix japonica and Xenopus laevis with 724 samples.

Results

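Liver RNA from adult Japanese quail (Coturnix japonica) exposed to ethinylestradiol was compared with liver RNA from solvent controls. The 16 libraries were taken by their table and level labels, out of 724 in the series. The CTRL group (6 libraries) carries the chemical label dmso, and the MED (5) and HIGH (5) groups carry the label ee2, for ethinylestradiol. All 3 groups are labelled adult and liver, and no strain or genotype is named for any of them. The levels have no unit in the labels, and the sources used here do not state dose, route, time, sex or whether each library came from a separate bird. P-values measure only how these libraries scatter, and that scatter may be technical. Paired-end reads had been counted by the authors per s2f identifier, a code that stands for a gene or gene group.

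In egg-laying vertebrates the liver is a main target of oestrogen. Oestrogen enters hepatocytes, binds a nuclear receptor and turns on the genes of yolk precursors such as vitellogenin, which travel in the blood to the growing egg. Ethinylestradiol is a synthetic oestrogen used in contraceptives that is broken down more slowly than the natural hormone, and yolk precursor transcripts in liver are widely used to mark exposure to it. No s2f identifier matched the gene table used here (0 of 21426), so the identifiers carry no gene name below, and neither the yolk genes nor liver markers could be looked up.

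The libraries held 10253987 to 32015394 counts. CTRL 1 and HIGH 6 stood apart, with a median Spearman correlation to the other libraries of 0.932 and 0.944, against 0.956 to 0.968 elsewhere. Levels below are normalised CPM, counts scaled to each library's total and its TMM factor. Identifiers at 10 normalised CPM or more, and at least 10-fold above every other library, numbered 17 in CTRL 1, 8 in HIGH 6, 5 in HIGH 1 and 4 in MED 3. None of the remaining libraries held any.

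HIGH libraries had more of 7 identifiers than CTRL libraries, by 1.91-fold to 8.67-fold, and no identifier was called lower. These 7 were 0.0587% of the 11932 tested (Benjamini-Hochberg adjusted p below 0.05 over all identifiers, by the quasi-likelihood test of edgeR). At an unadjusted p below 0.05, 558 were higher and 562 lower, and the median log2 fold change over all identifiers was 0.00033. DESeq2 called 66 higher and 38 lower on the same counts, and the 66 held all 7. It gave no adjusted p for 93 identifiers. In bulk liver RNA, fewer cells of a type and less RNA per cell cannot be told apart. The 7 calls depended on single libraries: edgeR called no identifier without CTRL 3, CTRL 4, CTRL 5 or CTRL 6, and the count lay between 2 and 15 without any other single library, the 2 being without MED 1 or HIGH 2 and the 15 without HIGH 5. Without CTRL 1 and HIGH 6 together it was 6, of which 5 were among the 7, and without CTRL 1, HIGH 1, HIGH 6 and MED 3 it was 2.

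The smallest p belonged to s2f_0006987002. It had 36.2, 132, 26.6, 41.8 and 44.3 normalised CPM in HIGH libraries 1, 2, 3, 5 and 6, against a lowest of 3.38, a median of 6.45 and a highest of 9.75 normalised CPM in CTRL libraries. Every HIGH library lay above every CTRL library, and HIGH 2 lay far above the other HIGH libraries. The log2 fold change was 3.12 ± 0.44 (SE; 5 HIGH and 6 CTRL libraries), or 8.67-fold, with an edgeR adjusted p of 0.0243. Without HIGH 2 the log2 fold change was 2.52. Without CTRL 1, HIGH 1, HIGH 6 and MED 3 it was 3.23, with an adjusted p of 0.0719 that no longer passed.

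The MED libraries had 19.0, 34.5, 35.2, 7.41 and 34.5 normalised CPM of s2f_0006987002, in order of library number. MED 4 fell within the CTRL range and the other MED libraries lay above it. The log2 fold change of MED over CTRL was 2.01 ± 0.43, with an edgeR adjusted p of 0.304, which did not pass.

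Next by p was s2f_0008126007, with 42.0, 48.1, 33.5, 51.8 and 57.6 normalised CPM in HIGH libraries, against a lowest of 5.74, a median of 11.2 and a highest of 21.5 normalised CPM in CTRL libraries. The HIGH values were close together for this identifier, all of them above every CTRL library and every MED library. It rose by 1.98 ± 0.30 on the log2 scale, or 3.94-fold (edgeR adjusted p = 0.0312). Its MED libraries had 33.0, 28.7, 11.0, 26.7 and 16.4 normalised CPM, which overlapped the CTRL range in MED 3 and MED 5. The log2 fold change of MED over CTRL was 0.97 ± 0.30 (edgeR adjusted p = 0.466), and that of HIGH over MED was 1.01 ± 0.32 (edgeR adjusted p = 0.652).

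**Figure D1:**
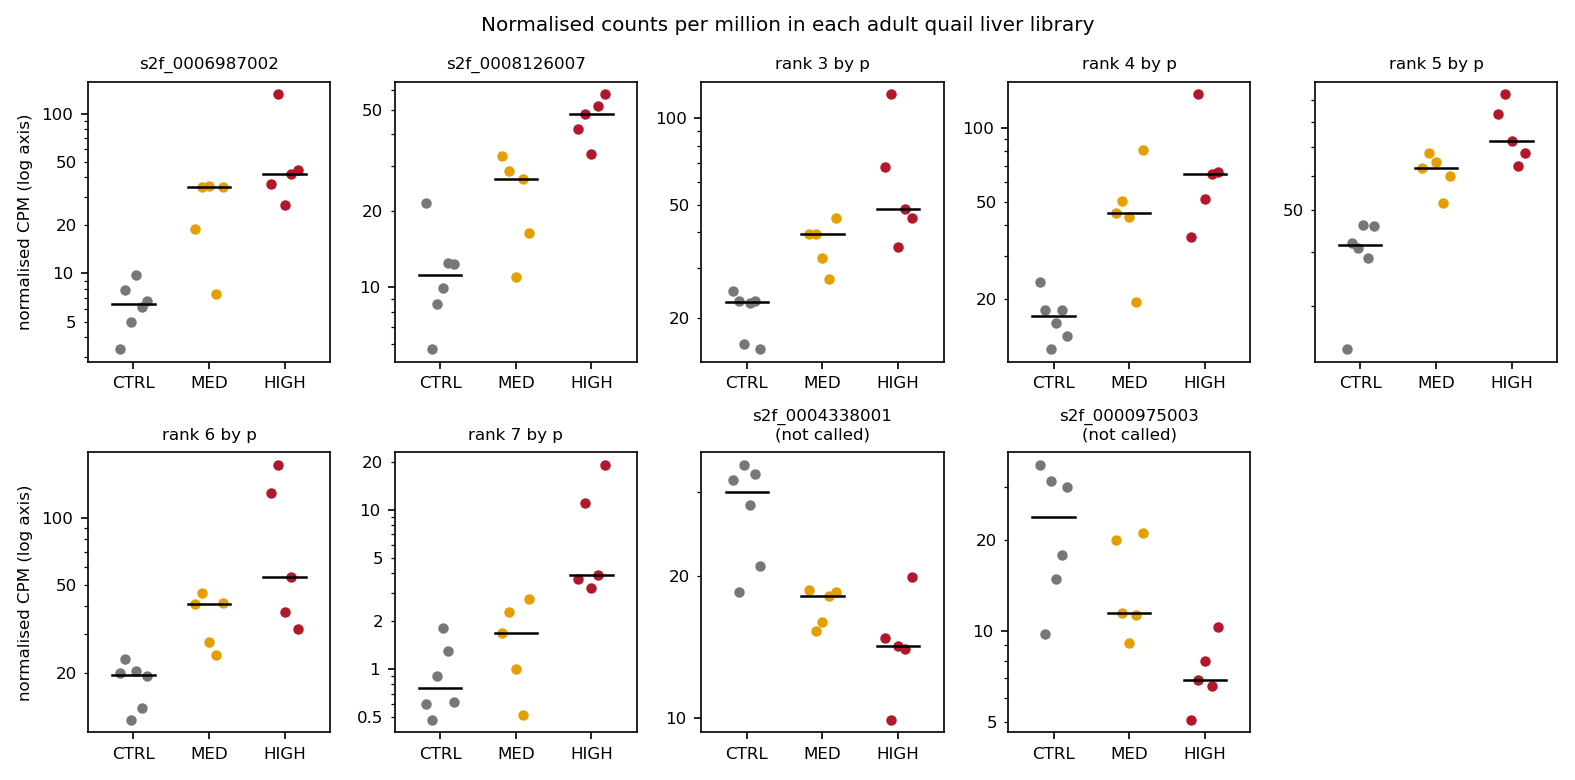
Normalised CPM (log axis) in each library of the CTRL, MED and HIGH groups for the 7 identifiers called higher in HIGH than in CTRL, ordered by p, and for the 2 named identifiers that were lower without a call. Points are libraries and bars are medians. For the 7, every HIGH library lies above every CTRL library, and the MED median lies between the HIGH and CTRL medians. The 7 were picked for HIGH values above CTRL values, which favours both.

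The other called identifiers, the third to the seventh by p, had log2 fold changes of 1.61 ± 0.26, 2.05 ± 0.33, 0.94 ± 0.16, 2.23 ± 0.38 and 3.09 ± 0.53, each with an edgeR adjusted p of 0.0312. For each of these the HIGH libraries lay above all CTRL libraries. HIGH 2 had the highest HIGH value for 5 of the 7 called identifiers and HIGH 6 for the other 2, while HIGH 3 had the lowest for 4. The seventh was counted least, with 41 to 343 counts per HIGH library and 10 to 41 counts per CTRL library. Its HIGH mean was 8.18 ± 6.89 normalised CPM and its CTRL mean 0.955 ± 0.515 normalised CPM (SD).

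Complete separation of HIGH from CTRL was seen for 56 identifiers on the higher side, 0.469% of those tested, and for 41 on the lower side, 0.344%. All 7 called identifiers were among the 56. The MED libraries lay wholly above the CTRL libraries for 90 identifiers, 0.754% of those tested, and wholly below them for 57 of 11932. Both levels lay wholly above CTRL for 8 identifiers, 0.067% of those tested, of which 3 were among the 7 called. Wholly below CTRL at both levels were 4 of 11932.

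On the lower side the smallest p belonged to s2f_0004338001 and s2f_0000975003, and neither passed. The first had 14.8, 9.94, 14.2, 13.98 and 19.9 normalised CPM in HIGH libraries, against a lowest of 18.5, a median of 30.0 and a highest of 34.2 normalised CPM in CTRL libraries. The groups overlapped only in HIGH 6, which lay above CTRL 2. The log2 fold change of HIGH over CTRL was -0.93 ± 0.18, with an edgeR adjusted p of 0.102. DESeq2 called it lower (adjusted p = 0.00183), and edgeR did so without HIGH 6 (adjusted p = 0.0394).

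For s2f_0000975003 the HIGH libraries had 5.10, 6.88, 7.96, 6.61 and 10.3 normalised CPM, against a lowest of 9.82, a median of 23.9 and a highest of 35.4 normalised CPM in CTRL libraries. Its log2 fold change was -1.66 ± 0.33 (edgeR adjusted p = 0.102). DESeq2 called it lower (adjusted p = 0.000513), and edgeR did so without CTRL 2 (adjusted p = 0.0468). HIGH 6 was again the HIGH library that reached into the CTRL range. The MED libraries had 15.3 to 18.7 normalised CPM of s2f_0004338001 and 9.14 to 21.1 normalised CPM of s2f_0000975003.

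MED against CTRL gave no call in edgeR (0 of 11932, or 0%), where 957 had an unadjusted p below 0.05. DESeq2 made 25 calls there. Both levels averaged against CTRL also gave 0 calls (0%), with 1150 at an unadjusted p below 0.05, a smallest adjusted p of 0.0869 and 83 calls by DESeq2. HIGH against MED gave 0 calls (0%), with 835 at an unadjusted p below 0.05 and 12 calls by DESeq2. The 7 identifiers had log2 fold changes of 0.94 to 3.12 in HIGH over CTRL and of 0.63 to 2.01 in MED over CTRL. These comparisons share the CTRL libraries. The 7 were picked by HIGH against CTRL, which favours a larger change at HIGH than at MED. HIGH over MED ran from 0.31 to 2.30 on the log2 scale for the same identifiers, with edgeR adjusted p-values of 0.577 or more.

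**Figure D2:**
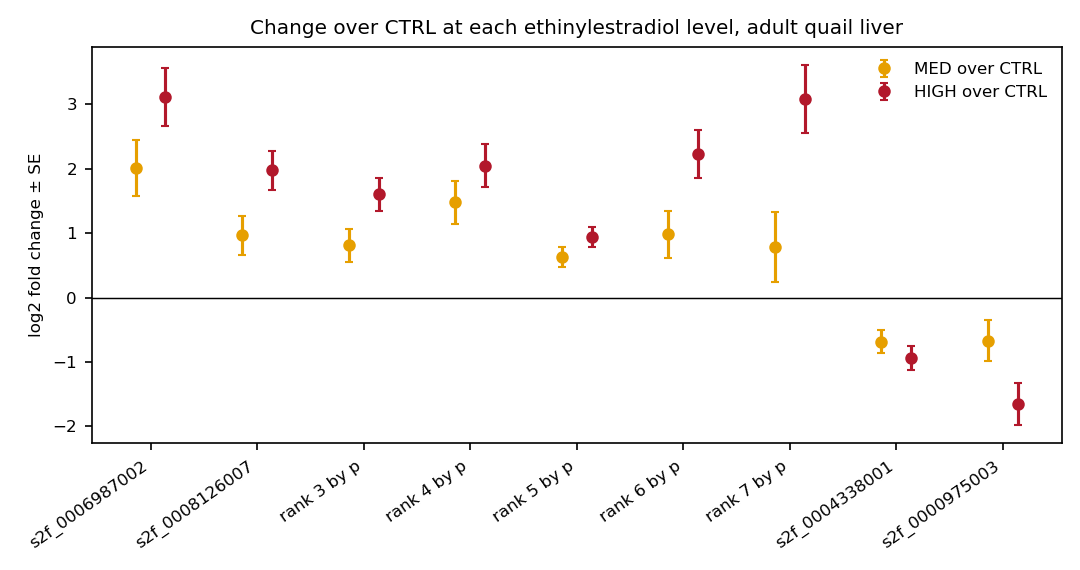
Log2 fold change over CTRL with its SE for MED (5 libraries) and HIGH (5 libraries) against the same 6 CTRL libraries, for the 7 called identifiers by rank of p and the 2 named identifiers that were lower without a call. HIGH lies farther from 0 than MED for each of them, and no MED value passed the test. All were picked by p in HIGH against CTRL, a choice that favours HIGH lying farther from 0. The order thus cannot show whether the response was graded, which was not tested.

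The share of counts taken by the 10 most abundant identifiers overlapped between the groups, and its differences did not pass. It was 28.4 ± 2.29% in HIGH libraries and 26.9 ± 2.84% in CTRL libraries (SD, n = 5 and n = 6), a difference of 1.58 percentage points (exact permutation test, two-sided p = 0.379). In MED libraries it was 29.8 ± 2.67%, which is 2.96 percentage points above CTRL (exact permutation test, two-sided p = 0.130). The smallest p these group sizes allow is 0.00216.

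A separate pattern was held by HIGH 1. Among the 5 identifiers at least 10-fold above all other libraries there, s2f_0020325001 had the largest such ratio; it was singled out after its values were seen. It had 4665 normalised CPM in HIGH 1 and 6.85, 2.39, 4.53 and 1.85 normalised CPM in HIGH libraries 2, 3, 5 and 6, against a lowest of 0.618, a median of 1.01 and a highest of 2.09 normalised CPM in CTRL libraries. HIGH 1 thus stood 681-fold above the next library. The MED libraries had 2.73, 2.48, 1.63, 2.35 and 2.54 normalised CPM, with 4 of the 5 above the highest CTRL library.

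The other identifiers of the set had 155, 153, 2005 and 9593 normalised CPM in HIGH 1, which was 17.0-fold to 284-fold above the next library. The identifier at 9593 had 6.76 to 33.7 normalised CPM in HIGH libraries 2, 3, 5 and 6, against 0.177 to 6.36 normalised CPM in CTRL libraries, with no overlap. For the other 3, none of those HIGH libraries lay above the highest CTRL library. Their fitted log2 fold changes in HIGH over CTRL were 3.73 to 9.95, with edgeR adjusted p-values of 0.102 to 0.331. These rest on HIGH 1: without it the values of the 5 identifiers, s2f_0020325001 included, were -0.28 to 2.90. With all libraries s2f_0020325001 had 9.72 ± 1.95 (edgeR adjusted p = 0.102). Among the edgeR settings it passed only where HIGH 5 was left out (edgeR adjusted p = 0.0409). DESeq2 gave no adjusted p for it.

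**Figure D3:**
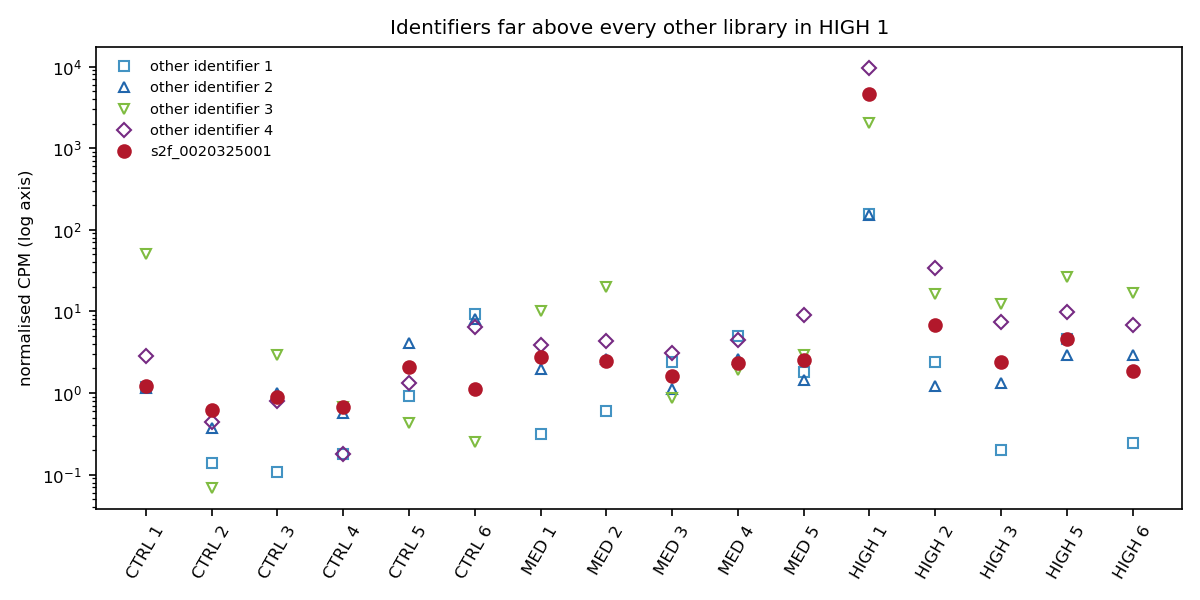
Normalised CPM (log axis) of the 5 identifiers that were at least 10-fold above every other library in HIGH 1, for each CTRL, MED and HIGH library. HIGH 1 holds 153 to 9593 normalised CPM, and no other library exceeds 50.7.

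The early-life quail table gave a second set of ethinylestradiol libraries from liver, with 5 HIGH, 5 MED and 5 CTRL libraries of its own. There HIGH against CTRL gave 107 identifiers called higher and 18 lower, 0.962% of those tested, and MED against CTRL gave 160 calls, 1.23% of those tested. The early-life HIGH calls, both directions together, were 75 to 82 without CTRL 1, CTRL 2, CTRL 4 or HIGH 2 of that table, and the MED calls were 90, 103 and 86 without CTRL 1, CTRL 5 and MED 3. All 5 identifiers set apart in HIGH 1 were among the 107, with log2 fold changes of 7.76 to 10.02 in early-life HIGH over CTRL. For s2f_0020325001 the early-life means were 8247 normalised CPM in HIGH and 32.8 normalised CPM in CTRL libraries, a log2 fold change of 7.98 ± 1.37 (edgeR adjusted p = 0.00803). Of the identifiers set apart in CTRL 1, HIGH 6 and MED 3, 0 were among the 107. In early life 16 of the 17 from CTRL 1, all 8 from HIGH 6 and 2 of the 4 from MED 3 were tested. With 0.962% of all identifiers called there in either direction, a count of 0 among so few is near the overall share.

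Adult values of the identifiers called higher in early-life HIGH were read library by library. Of the 107, 90 passed the filter on low counts in adults. Members at least 4-fold above the highest other CTRL library numbered 8 of 90 in HIGH 1, 3 in HIGH 2, 1 in HIGH 3 and 0 in HIGH 5 and HIGH 6. In MED libraries 1 to 5 they numbered 0, 0, 1, 0 and 0. In CTRL 1 there were 4, in CTRL 6 there were 2, and in the other CTRL libraries there were 0.

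Those 8 members were 8.89% of the 90 in HIGH 1, where 0.126% of all identifiers tested were as far above the controls. The 8 include all 5 identifiers picked for standing apart in HIGH 1. That these 5 stood so far above the controls in HIGH 1 was fixed by the choice, so it is no further sign. The choice did not use early-life values, and the same 5 are also counted in the 0.126%. In HIGH 2 the shares were 3.33% of the 90 and 0.176% of all identifiers tested. Controls also had such members, at 4.44% of the 90 and 0.989% of all in CTRL 1, and at 2.22% of the 90 and 0.067% of all in CTRL 6. The share among the 90 was thus above that among all identifiers in some HIGH libraries and in some CTRL libraries. Each HIGH library was set against all CTRL libraries, and each CTRL library only against the others. The bar for a CTRL library could therefore be lower, and the HIGH and CTRL shares are not like for like.

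Across the groups, 2 of the 90 were called in adult HIGH against CTRL (2.22%, against 0.0587% of all tested), s2f_0008126007 and the third identifier by p. The count was 0 without CTRL 3, CTRL 4, CTRL 5 or CTRL 6, 1 without CTRL 2, MED 1, HIGH 1 or HIGH 2, and 4 without HIGH 5. The median adult log2 fold change over the 90 was 0.14 in HIGH and 0.03 in MED, against 0.00033 and -0.02 over all tested, and 52 of the 90 were higher in HIGH (57.8%, against 50.1% of all tested). At an unadjusted p below 0.05, 15 of the 90 were higher in adult HIGH (16.7%, against 4.68% of all) and 2 lower (2.22%, against 4.71% of all). The 15 include the 5 identifiers picked for standing apart in HIGH 1. Of the 18 identifiers called lower in early life, 14 were tested in adults and 0 were called, with 9 higher and a median log2 fold change of 0.27.

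Identifiers called higher at HIGH in at least 2 of 6 other ethinylestradiol tables that have controls numbered 13, of which 6 were tested in adult quail. All 6 had a positive log2 fold change in adult HIGH over CTRL, with a median of 3.37, and 0 were called. Over all identifiers tested, 50.1% were higher in HIGH and 0.0587% were called. The signs depended on HIGH 1: without it alone, 2 of the 6 had log2 fold changes of -0.047 and -0.28. Without CTRL 1, HIGH 1, HIGH 6 and MED 3 the median was 0.17. In MED over CTRL the median was -0.04 and 3 of the 6 were above 0. In HIGH 1, 4 of the 6 were at least 4-fold above the highest CTRL library (0.126% of all identifiers were), and 3 of the 6 belong to the set picked for standing apart there. HIGH 2, MED 3, CTRL 1 and CTRL 6 each had 1 of the 6 that far above the highest other CTRL library. Library by library, the 6 were set against their CTRL means, with 1 normalised CPM added to each value. The median log2 ratio was 4.56 in HIGH 1, and 0.17, 0.02, 0.70 and 0.11 in HIGH 2, 3, 5 and 6.

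The change itself differed between the life stages for 59 identifiers at HIGH, 0.442% of those tested, and for 42 at MED, 0.314% of those tested (edgeR's quasi-likelihood test of the interaction, adjusted p below 0.05). Stage and table are the same split and cannot be told apart. Leaving out single libraries gave 28 to 105 calls at HIGH, the 28 without early-life CTRL 4 and the 105 without adult HIGH 3, and 26 to 70 at MED, the 26 without early-life CTRL 2 and the 70 without adult CTRL 2. The adult log2 fold change was above the early-life one for 26 of the 59 at HIGH and for 8 of the 42 at MED, signs counted. Of those tested alone at both stages, the adult change was the smaller in size for 23 of 53 at HIGH and for 29 of 40 at MED. The same count was not made over all identifiers, so no reading is drawn from it. At HIGH, 20 of the 59 had been called higher in early life and 2 lower. Over all identifiers tested in early life, 0.962% were called at HIGH in either direction. The early-life libraries that made those calls also enter the stage comparison, which favours such overlap.

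Of the 7 adult calls, 6 were tested alone at both stages. For 4 of these the adult log2 fold change was above the early-life one beyond the threshold. Over all identifiers, 0.442% differed between the stages at HIGH in either direction. The 7 were picked for their change in adult libraries that also enter this comparison. That choice favours an adult change above the early-life one. The log2 fold change of s2f_0006987002 was 3.12 ± 0.44 in adult HIGH over CTRL and -0.17 ± 0.21 in early-life HIGH over CTRL, a stage difference of 3.29 ± 0.52 (edgeR adjusted p = 0.00181). The early-life means of that identifier were 20.1 normalised CPM in HIGH and 22.5 normalised CPM in CTRL libraries. The fourth, the fifth and the sixth by p had stage differences of 2.46, 1.01 and 2.41 on the log2 scale. The seventh did not pass the filter on low counts in the early-life table alone. Its stage difference is listed only among the flagged results below, and no reading is drawn from it.

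The other 2 adult calls were also called in early life. Early-life HIGH libraries had a mean of 22.3 normalised CPM of s2f_0008126007, against 2.11 normalised CPM in early-life CTRL libraries, and the log2 fold change was 3.40 ± 0.61 (edgeR adjusted p = 0.0109). Early-life MED over CTRL was 2.81 ± 0.60 (edgeR adjusted p = 0.0327). The stage difference at HIGH was -1.41 ± 0.66 and did not pass (edgeR adjusted p = 0.407). The third by p had 0.57 ± 0.12 in early-life HIGH over CTRL (edgeR adjusted p = 0.0409) and a stage difference of 1.05 ± 0.31 (edgeR adjusted p = 0.133).

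**Figure D4:**
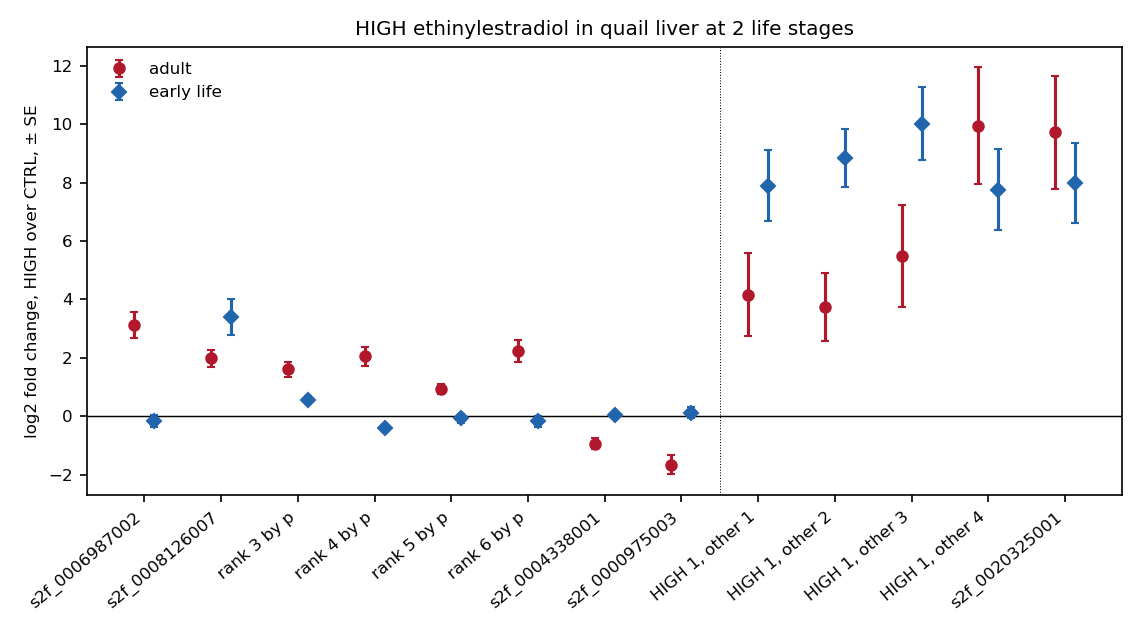
Log2 fold change in HIGH over CTRL with its SE in adult and early-life quail liver. Left of the dotted line are called identifiers tested at both stages and the 2 named lower ones; right of it are the 5 identifiers set apart in HIGH 1. The identifier s2f_0006987002 lies at 3.12 in adults and -0.17 in early life, and s2f_0008126007 at 1.98 in adults and 3.40 in early life.

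In the ethinylestradiol tables of the other species 6 of the 7 adult calls were tested, all but s2f_0008126007, and 0 of the 6 passed in any table. HIGH against CTRL gave 24 calls in adult minnow liver (0.178%), 15 in minnow embryos (0.0894%) and 220 in trout embryos (1.38%). These counts depended on single libraries of each table. Adult minnow gave 12 without CTRL E and 14 without CTRL B, and 430, 304, 66 and 336 without HIGH B, C, D and E. Minnow embryos gave 1280 without CTRL A. Trout embryos gave 51 and 61 without CTRL A and B, and 98 and 111 without HIGH B and C. In leopard frog embryos there were 0 calls (0%), with 816 at an unadjusted p below 0.05 in edgeR. In clawed frog embryos there were 0 calls (0%), with 145. Among the 6, the third by p had the smallest adjusted p, in trout embryos, with a log2 fold change of 0.45 ± 0.13 (edgeR adjusted p = 0.106). In adult minnow liver s2f_0006987002 had means of 23.0 normalised CPM in HIGH and 3.45 normalised CPM in CTRL libraries, a log2 fold change of 2.74 ± 0.92 (edgeR adjusted p = 0.152), and the sixth by p had 2.13 ± 0.67 (edgeR adjusted p = 0.138).

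Part of the set apart in HIGH 1 was also called in other species. Of the 5 identifiers, 3 of the 4 tested were called higher in adult minnow HIGH. Minnow embryos had 3 of 5 called at HIGH, and trout embryos had 2 of 2, with log2 fold changes of 2.87 to 10.64 where called. In leopard frog embryos 1 was tested and in clawed frog embryos 4 were, and 0 were called in either. The calls came from the same 3 identifiers, 2 of them in trout embryos. Neither s2f_0020325001 nor the identifier at 9593 normalised CPM in HIGH 1 was called in another species. In minnow embryos s2f_0020325001 had a log2 fold change of 0.54 ± 0.31 (edgeR adjusted p = 0.482). Over all identifiers, calls in either direction were 0.178% in adult minnow, 0.0894% in minnow embryos and 1.38% in trout embryos. Among the other adult quail libraries, replicate 5 of chlorpyrifos HIGH held the highest value of 4 of the 5, at 119.7 CPM of s2f_0020325001 and 38.3 to 107 CPM of the others.

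Adult quail liver was also sequenced after exposure to other chemicals, with controls of their own for benzo[a]pyrene and lead. HIGH against CTRL gave 0 calls for benzo[a]pyrene (0%, with 784 at an unadjusted p below 0.05 in edgeR) and 3 for lead (0.0256%). The lead count was 0 without CTRL 1 or HIGH 2, 1 without HIGH 3 or HIGH 4, and 6 without HIGH 5. None of the 7 identifiers was called in either. Their log2 fold changes in HIGH over CTRL were -0.67 to 0.65 for benzo[a]pyrene and -0.92 to 0.27 for lead. The 10 exposed libraries of the lead table held the same counts, for all 18350 identifiers, as 10 libraries labelled early life, so their stage is uncertain.

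Levels in the 80 other libraries labelled adult quail liver were read as CPM by library total alone, with no test, since the tables differ in controls and possibly in handling. For s2f_0006987002, 65 of the 80 exceeded the highest ethinylestradiol CTRL library and 33 reached the lowest HIGH library. The highest was a trenbolone HIGH library at 155 CPM. The ethinylestradiol controls thus lay below most of the other libraries for this identifier. The median of all identifiers was 6 of the 80 above the highest CTRL library (quartiles 3 and 13). However, s2f_0006987002 was picked for CTRL values below HIGH values. That choice favours a larger count, so the median is not a like-for-like measure. Why the levels differ was not tested.

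Of the other controls, those of benzo[a]pyrene lay near the ethinylestradiol controls and those of lead reached higher. The ethinylestradiol controls had 4.52 to 8.90 CPM of s2f_0006987002 (median 6.76). The 5 benzo[a]pyrene controls had 5.22 to 9.26 CPM (median 6.71) and the 5 lead controls 5.67 to 35.4 CPM (median 19.1). Without the lead table, 54 of 65 libraries exceeded the highest ethinylestradiol CTRL library. The third to the seventh by p had 35, 29, 61, 29 and 35 of the 80 above it. Of the 5 benzo[a]pyrene controls, 0, 0, 1, 0 and 0 were above it, and of the 5 lead controls 3, 4, 2, 3 and 4.

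For s2f_0008126007 the HIGH libraries stood higher among all adults. Here 12 of the 80 other libraries exceeded the highest CTRL library, 6 reached the lowest HIGH library and 0 exceeded the highest HIGH library, at 54.8 CPM. Without the lead table the counts were 7 and 3 of 65. The benzo[a]pyrene controls had 9.26 to 22.4 CPM and the lead controls 9.17 to 43.0 CPM.

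**Figure D5:**
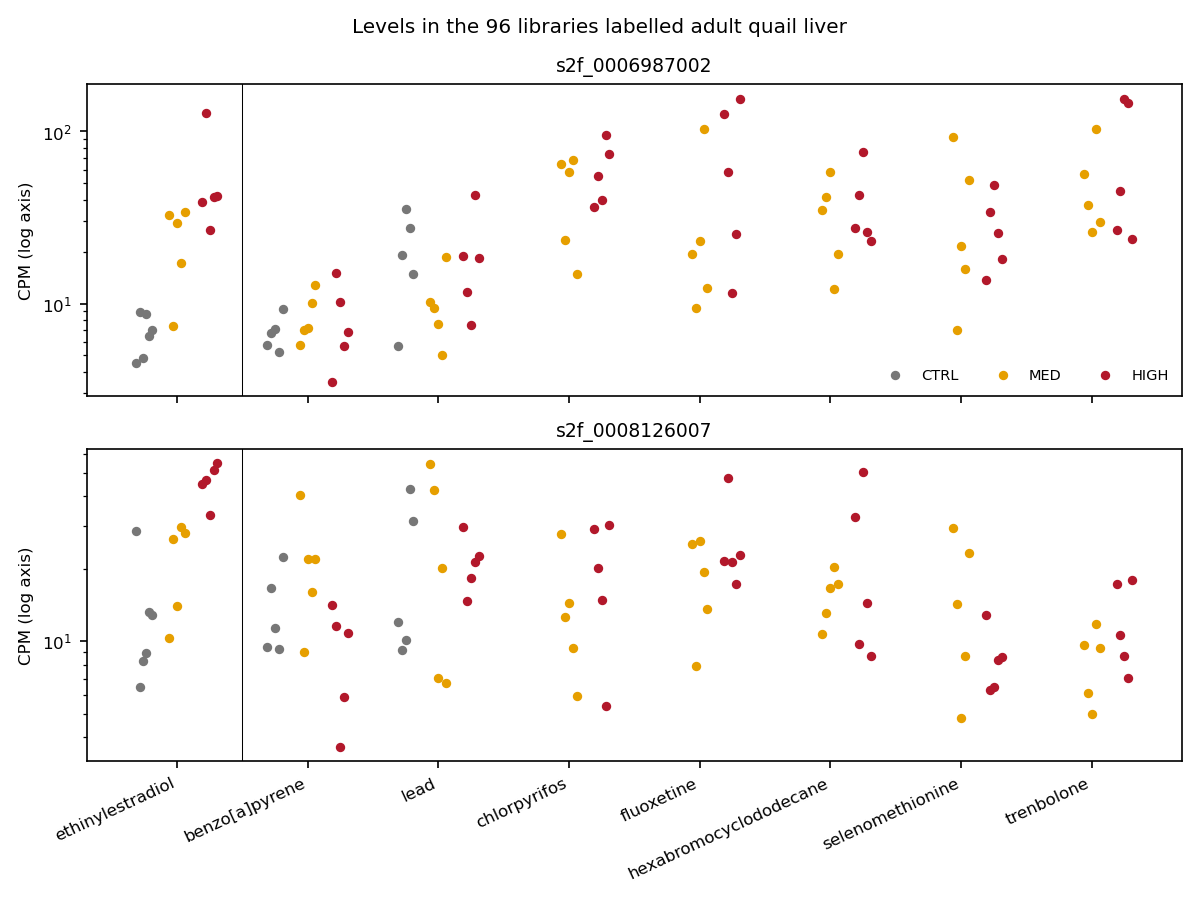
CPM by library total (log axis) of the 2 identifiers with the smallest p in every library labelled adult quail liver, by table and level. Only ethinylestradiol, benzo[a]pyrene and lead have labelled CTRL libraries here. For s2f_0006987002 many libraries of other tables reach the ethinylestradiol HIGH values, and for s2f_0008126007 6 of the 80 do.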

How the data were processed

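Liver RNA was purified on columns and sequenced in paired-end reads on Illumina instruments, per the labels' protocols. Values are raw counts for each s2f identifier, as the authors deposited them; the sources used here name neither the counting tool nor the reference. Columns were used where their name matched a sample title; 32 columns of per-sample counts in the tables used matched none and were left out.

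All 16 adult libraries entered 1 fit. Low identifiers were removed with filterByExpr at a minimum total of 15 and a minimum count of 10, and TMM set the scale. Groups were compared two-sided with the quasi-likelihood test of edgeR 4.0.16 (R 4.3.3, limma 3.58.1), adjusted by Benjamini-Hochberg and called at 0.05. The SE is the log2 fold change over the square root of F. DESeq2 1.42.0 was an alternative. The fit was also run on simulated counts with known changes, drawn from its own estimates of spread. No simulated library was made to stand apart, so that run does not cover such libraries. Its outcome is not given here. Other tables were fitted the same way, each alone; the stage comparison joined the 2 quail tables. The closest pair of libraries within a group differed by a chi-square of 38.5 per degree of freedom, more than repeat reads of the same library would. This cannot show that they came from separate birds. Each library was counted as a sample.

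With no gene names, the rule for naming took the 2 identifiers with the smallest p on each side. The members and lists were chosen with earlier results of these data known. Gene lists, cell type markers and sequences had no matching identifiers and were not used here.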

Additional observations from a re-analysis of the deposited data

Results flagged for a closer look

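In all, 45 checks were made of groups of 5 or 6 libraries. Chance marks about 1 in 20 where values follow a normal distribution. The CPM values were not log-transformed, so chance may mark more here. A single library lay far from the rest of its group in the following. HIGH 2 had 132 normalised CPM of s2f_0006987002, and CTRL 1 had 23.9 normalised CPM of the fifth identifier by p. The identifiers of the next set were picked for standing apart in HIGH 1, so their distance there is a description and no further sign: HIGH 1 had 4665 normalised CPM of s2f_0020325001 and 155, 153, 2005 and 9593 normalised CPM of the other 4 identifiers of that set. Within the same set CTRL 6 had 9.17, CTRL 1 had 50.7 and MED 5 had 9.16 normalised CPM of 1 identifier each.

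The change at HIGH differed between adult and early-life quail for 59 identifiers and at MED for 42 (edgeR, interaction term). At HIGH the difference, adult minus early life on the log2 scale, was 3.29 for s2f_0006987002 and 2.46, 1.01, 2.41 and 4.06 for the fourth to the seventh by p, the seventh having failed the filter on low counts in the early-life table alone. It was -0.98 for s2f_0004338001 and -1.78 for s2f_0000975003, which were not called in adults alone. These identifiers were picked by their adult change at HIGH, which favours such differences. At MED the difference was 1.85 for the fourth by p and -9.13 for 1 identifier of the set in HIGH 1.

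Outside the ethinylestradiol table, 1 adult library labelled chlorpyrifos HIGH (replicate 5) had 119.7 CPM of s2f_0020325001 and 107 CPM of another identifier of the set, each above every ethinylestradiol CTRL library.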

How the results depend on the processing

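The 7 calls of HIGH against CTRL were 7 under RLE scaling, without the filter and with robust fitting, but 104 with DESeq2, 4 with only the groups compared, and 0 to 15 without single libraries. MED against CTRL (0) gave 25 with DESeq2, 5 with only the groups compared, and 0 to 1 without single libraries. Both levels against CTRL (0) gave 83 with DESeq2, 1 without the filter and 0 to 3 without single libraries. HIGH against MED (0) gave 12 with DESeq2 and 0 to 1 without single libraries. The stage differences (59 at HIGH, 42 at MED) gave 192 and 154 with DESeq2, 28 to 105 and 26 to 70 without single libraries. The causes were not tested.

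The replicate block (the library number as a term) gave 0 calls for HIGH against CTRL and 28 for the stage difference at HIGH. Whether same-numbered libraries share more than a number is not known. Of 14 same-numbered pairs, 1 correlated over 0.1 (-0.07 to 0.19, median 0.03). Of 71 other pairs, 5 did (-0.23 to 0.19, median -0.01). Such correlations cannot exclude a shared block.

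Alternatives chosen after seeing the data were library totals alone, which gave 3, 2 and 72 calls for HIGH, both levels and the stage difference at MED, and moved the median log2 fold change of all identifiers at MED to -0.22. Without CTRL 1, HIGH 1, HIGH 6 and MED 3 there were 2 calls for HIGH and 4 for both levels; without CTRL 1 and HIGH 6 alone there were 6 for HIGH. Of the identifiers set apart in HIGH 1, 2 turned to -0.047 and -0.28 without HIGH 1 (their highest without 1 library were 5.96 and 4.49), and the second to -0.65 without all 4 libraries. The log2 fold change of s2f_0006987002 was 2.52 to 3.29 and that of s2f_0008126007 1.84 to 2.24 without single libraries. The difference in the share of the 10 most abundant identifiers kept its sign.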
